A study of Mus musculus with 6 samples.

Results

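Zp1, Zp2 and Zp3 encode the glycoproteins of the mouse egg coat, and they were the 3 rows of the deposited gene table that carried one of these symbols, out of 37924 genes. All 3 were high enough to be tested. They were followed in ovaries of mice at postnatal day 14, on a C57BL/6J/129S7/SvEvBrd background. The conditional knockout group (cKO) was 3 pools of Ubc9flox/flox mice carrying Gdf9iCre, a Cre recombinase under the promoter of the oocyte gene Gdf9. The control group was 3 pools of Ubc9flox/flox mice without Cre, so both groups are homozygous for the floxed allele. Each pool held 1 ovary from each of 3 mice, and each pool was sequenced as 1 library. Whole ovary was used, so cells without Cre activity are part of every library.

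The zona pellucida is the extracellular coat that a growing oocyte builds around itself. ZP2 and ZP3 form its long filaments and ZP1 links filaments to each other. The coat takes part in sperm binding, in the block to polyspermy and in protecting the early embryo. The transcripts are textbook markers of growing oocytes. FIGLA, a basic helix-loop-helix factor, switches on all the zona genes of the mouse by binding E-boxes, which are short motifs with the letters CANNTG, together with a partner E protein.

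The members lie on different chromosomes. In the GRCm38 assembly, Zp1 (ENSMUSG00000024734) spans chr19:10914287-10920632 on the minus strand, and its main transcript has 12 exons and 1963 bases. Zp2 (ENSMUSG00000030911) spans chr7:120126772-120145291 on the minus strand, with 18 exons and 2221 bases. Zp3 (ENSMUSG00000004948) spans chr5:135980099-135988624 on the plus strand, with 8 exons and 1323 bases. No other annotated gene overlaps any of them. The first 90 coding bases of each main transcript are given with the start codon in capitals.
Zp1: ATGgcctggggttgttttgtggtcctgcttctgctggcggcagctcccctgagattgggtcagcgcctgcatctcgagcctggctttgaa
Zp2: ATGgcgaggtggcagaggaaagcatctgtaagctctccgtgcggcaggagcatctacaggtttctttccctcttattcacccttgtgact
Zp3: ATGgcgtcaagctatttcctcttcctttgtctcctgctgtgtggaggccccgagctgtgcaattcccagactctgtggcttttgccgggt
The longest run of bases found in both of any pair of main transcripts was 13 bases, between Zp1 and Zp2, and 11 bases in each of the other pairs. In a global alignment of the coding sequences, 61.3% to 67.0% of the aligned bases were identical.

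The 250 bases before the RefSeq start of Zp3 (GRCm38.p6, chr5:135979855-135980104, plus strand) are shown because they hold the kind of motif that FIGLA binds. E-boxes CANNTG, searched on both strands, and the TATA box letters TATAA, searched on the gene's own strand, are in capitals.
Zp3 promoter: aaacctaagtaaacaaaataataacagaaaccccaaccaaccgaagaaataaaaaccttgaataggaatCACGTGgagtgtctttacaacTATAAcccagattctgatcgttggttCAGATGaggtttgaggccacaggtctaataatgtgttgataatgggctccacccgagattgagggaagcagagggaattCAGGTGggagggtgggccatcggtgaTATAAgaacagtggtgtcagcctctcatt
The 3 E-boxes begin 181, 134 and 55 bases before the start. Such letters are common, since 66.2% of 32536 promoter windows of the same length held at least 1 E-box and 12.2% held at least 3. The form at the first of them, CACGTG, was in 6.04% of windows. The form nearest the start, CAGGTG, was in 17.3%. The TATAA letters begin 160 and 29 bases before the start. At least 1 was held by 15.9% of windows and at least 2 by 2.48%. The letters TAATTG of the NOBOX element (in 7.18% of windows) and TGATTG of the LHX8 element (in 12.7%), both searched on both strands, are not in this window.

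The 6 libraries held 13170 to 13649 genes at 1 FPKM or more, FPKM being a fragment count divided by transcript length and library depth. Mitochondrial genes took 7.31% to 13.9% of the summed FPKM in cKO and 11.9% to 14.2% in control. Depth was estimated at 22.5 to 24.9 M fragments in cKO and 19.6 to 22.7 M fragments in control, M standing for 1e6. Between 2760 and 26321 fragments were estimated to stand behind each egg coat value, from the size of the lowest values in each library, which puts counting error at 0.616% to 1.90% of the value, far under the spread between pools. Growing-oocyte transcripts marked the tissue as an ovary, with Gdf9 at 198 to 343 FPKM. The sperm protamine gene Prm2 was at most 1.29 FPKM.

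Egg coat transcripts were more abundant in cKO ovaries. Zp2, whose protein is cut after fertilization to block further sperm, rose 1.86-fold by geometric means, and Zp3, whose protein pairs with ZP2 in the filaments, rose 1.72-fold. Zp1, the cross-linker, was 1.63-fold higher without passing the test. Here and below, rose and fell are used of genes with a limma adjusted p under 0.05. Of the 14934 genes tested, 334 rose, which is 2.24%, and 312 fell, which is 2.09%, so 4.33% changed in either direction. Every cKO pool lay above every control pool for all 3 egg coat genes, a pattern seen in 18.0% of tested genes, while 12.0% had the opposite pattern and 30.0% had groups that do not overlap in either direction. In whole ovary, more oocytes or growing follicles and more RNA per oocyte cannot be told apart.

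Zp1 read 125, 113 and 184 FPKM in cKO 1 to 3, against 82.0, 93.5 and 77.7 FPKM in control 1 to 3. Every cKO pool lay above every control pool, and cKO 3 stood highest. Zp1 averaged 141 ± 38.1 FPKM in cKO and 84.4 ± 8.20 FPKM in control (SD, n = 3 each). The difference was 0.70 on the log2 scale of FPKM + 1 (standard error 0.18, 95% interval 0.29 to 1.12), with a limma adjusted p of 0.0716.

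Zp2 read 475, 371 and 509.9 FPKM in cKO 1 to 3, against 222, 244 and 257 FPKM in control 1 to 3. The groups do not overlap, and the lowest cKO pool, cKO 2, was still above the highest control pool, control 3. Zp2 averaged 452 ± 72.3 FPKM in cKO and 241 ± 17.5 FPKM in control (SD, n = 3 each). Its log2 change was 0.89 (standard error 0.13, 95% interval 0.59 to 1.20; limma adjusted p = 0.0204).

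Zp3 read 449.7, 388 and 614 FPKM in cKO 1 to 3, against 265, 299 and 266 FPKM in control 1 to 3. Again the groups do not overlap, with cKO 3 highest and cKO 2 lowest among the cKO pools, the same order as for Zp2. Zp3 averaged 484 ± 117 FPKM in cKO and 277 ± 19.5 FPKM in control (SD, n = 3 each). Its log2 change was 0.78 (standard error 0.16, 95% interval 0.40 to 1.16; limma adjusted p = 0.0454).

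**Figure D1:**
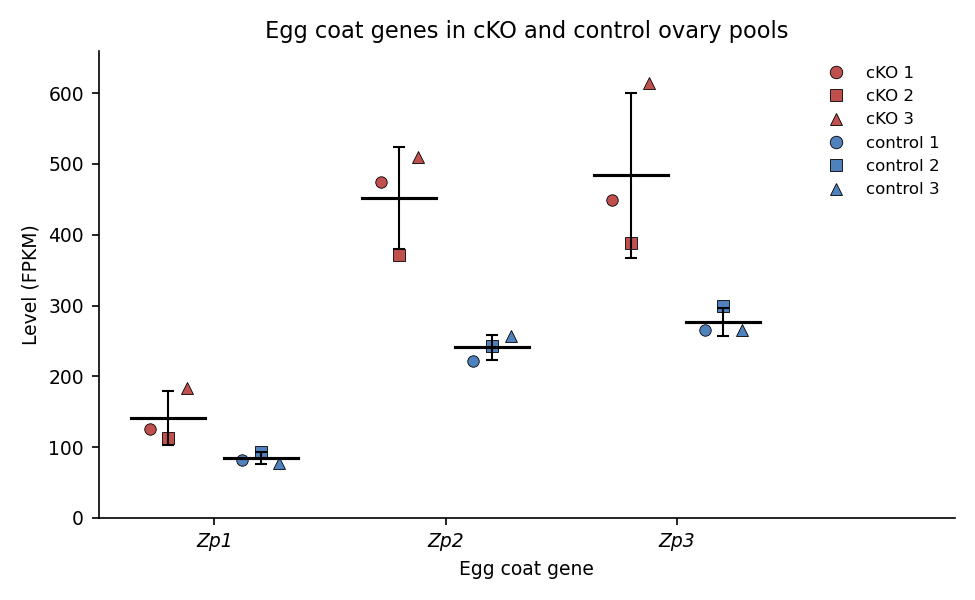
Level of each egg coat gene in FPKM, with 1 point per ovary pool; lines are group means and bars are SD (n = 3 pools each). Every cKO point lies above every control point of the same gene, and cKO 3 is the highest pool for all 3 genes.

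The balance of calls over all genes moved with scaling. There were 270 genes that rose and 421 that fell with quantile normalisation, 254 and 577 with libraries centred on the median gene, 775 and 255 when centred on reference genes, and 92 and 430 when centred on growing-oocyte genes. The egg coat genes stayed higher in cKO under all 4 scalings. Centring on growing-oocyte genes moves the median change of all tested genes to -0.19, against 0.05 as deposited. Relative to the median gene, the log2 changes as deposited were 0.66 for Zp1, 0.85 for Zp2 and 0.73 for Zp3.

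The calls rest on few libraries. Zp2 lost its call when control 1, control 2 or cKO 1 was left out (limma adjusted p = 0.103, 0.112 and 0.0847), and Zp3 lost it without any 1 of the libraries except cKO 3 (adjusted p of 0.0502 to 0.163 in those 5 fits). With 1 library left out, the log2 changes lay between 0.49 and 0.85 for Zp1, 0.80 and 1.03 for Zp2, and 0.59 and 0.92 for Zp3. The numbers in the library names fall into 2 ranges, whose meaning is not stated, with the controls and cKO 1 in 1 of them and cKO 2 and cKO 3 in the other. Within the first range, the log2 change of cKO 1 over the 3 controls was 0.57 for Zp1, 0.98 for Zp2 and 0.70 for Zp3 (limma adjusted p = 0.119, 0.0801 and 0.0942), taking the lone cKO library to vary as much as the control libraries.

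**Figure D2:**
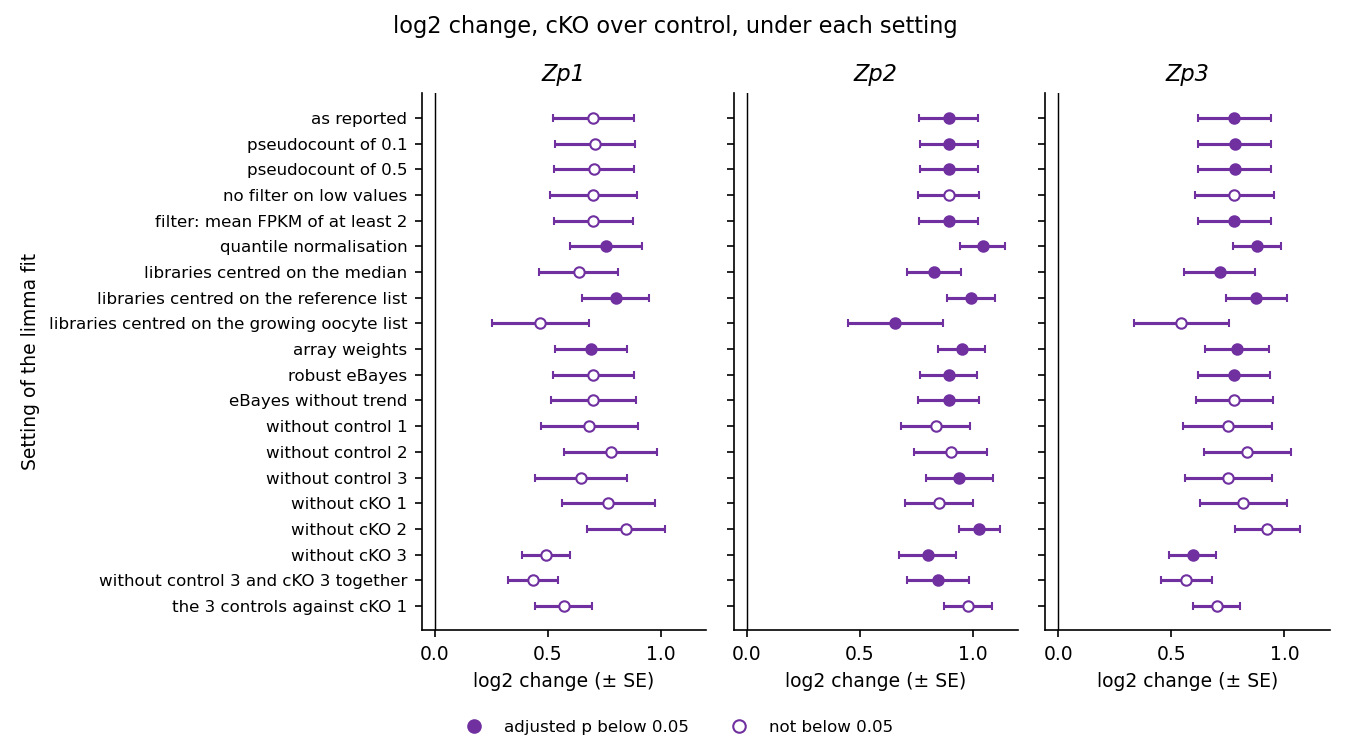
The log2 change of FPKM + 1, cKO over control, of Zp1, Zp2 and Zp3 in the fit as reported and under 19 alternatives; bars are standard errors and filled points have a limma adjusted p below 0.05. All points lie right of 0, which only a change of library scaling could have altered. Zp1 is filled under 3 alternatives, Zp2 under 14 and Zp3 under 9.

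Levels per length followed the order Zp3, Zp2, Zp1 in 5 of the 6 libraries. In cKO 1, Zp2 was above Zp3. By mean FPKM over all libraries, Zp3 ranked 180 and Zp2 ranked 191 among the 14934 genes tested, whereas Zp1 ranked 642. Zp3 and Zp2, neighbours in this order, did not differ beyond their spread, their FPKM ratio (Zp2 per Zp3) being 1.06, 0.956 and 0.830 in cKO 1 to 3, against 0.838, 0.814 and 0.966 in control 1 to 3. Zp1 stood well below both, at 0.279 to 0.300 of Zp3 in cKO and 0.292 to 0.313 of Zp3 in control.

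The make-up of the egg coat transcripts overlapped between the genotypes. Zp1 made up 13.0% ± 1.07 of the summed FPKM of the 3 genes in cKO and 14.0% ± 0.947 in control (SD, n = 3 each; two-sided exact permutation p = 0.2). Zp2 made up 42.3% ± 3.13 in cKO and 40.0% ± 2.42 in control (exact permutation p = 0.5). Zp3 made up 44.8% ± 2.07 in cKO and 46.0% ± 1.47 in control (exact permutation p = 0.6). A single scaling factor per library leaves these shares as they are, and the groups overlap for each gene. With 3 libraries against 3 the smallest p possible is 0.1, so these shares could not have passed at 0.05. Control 3 had the highest Zp2 share of the control pools (42.8%) and cKO 3 the lowest of the cKO pools (39.0%). Without control 3 and cKO 3 together, the share was 5.25 percentage points higher in cKO for Zp2 (two-sided exact permutation p = 0.333), against 2.23 with all libraries. Leaving out 1 library at a time moved this difference between 0.75 (without cKO 1) and 3.87 (without cKO 3), with 3.61 without control 3 and 1.35 without control 2. In the same 4 fits (without cKO 1, cKO 3, control 3 and control 2) the difference was -0.51, -1.57, -1.57 and -0.68 for Zp1, against -1.03 with all libraries. For Zp3 it was -0.24, -2.30, -2.04 and -0.67, against -1.20 with all libraries.

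**Figure D3:**
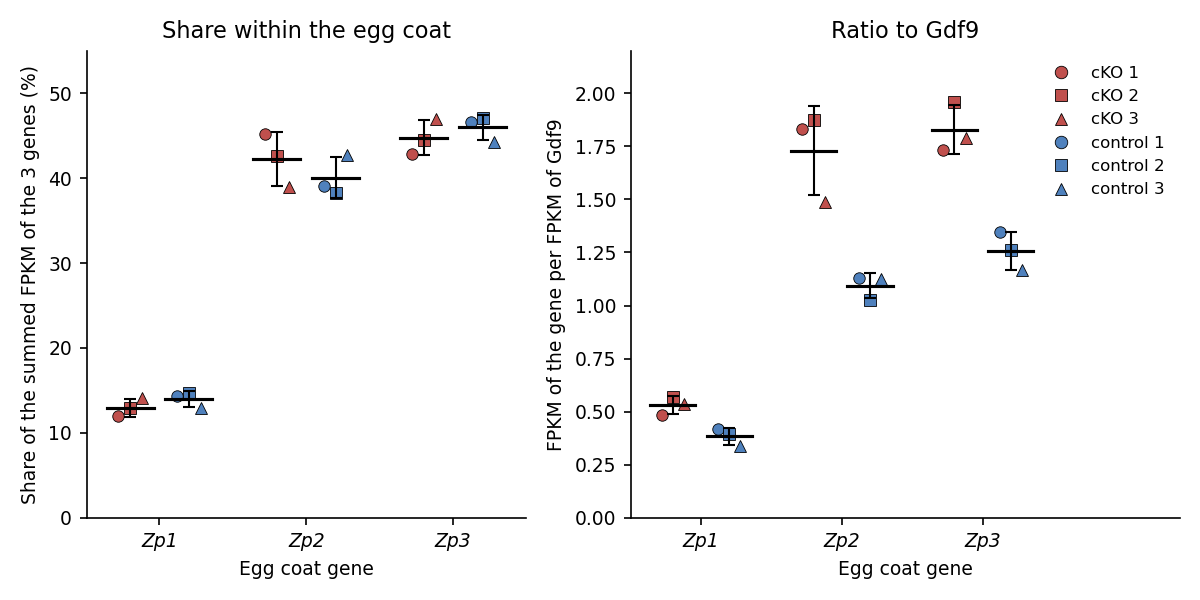
Left, the share of each gene in the summed FPKM of the egg coat genes, in percent; right, the FPKM of each gene per FPKM of Gdf9. Points are ovary pools, lines are means and bars are SD (n = 3 pools each); the groups overlap on the left and do not overlap on the right.

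Set against the transcripts of either oocyte growth factor in the same library, the egg coat genes were again higher in cKO. Gdf9, which encodes an oocyte growth factor for the surrounding granulosa cells, averaged 267 ± 72.7 FPKM in cKO and 221 ± 21.2 FPKM in control (SD, n = 3 each) and did not pass the test (log2 change 0.24, limma adjusted p = 0.476). Its change was 0.04 without cKO 3 and 0.44 without cKO 2. Per unit of Gdf9, Zp2 measured 1.83, 1.87 and 1.49 in cKO 1 to 3, against 1.13, 1.03 and 1.13 in control 1 to 3. Per unit of Gdf9, Zp3 measured 1.73, 1.96 and 1.79 in cKO, against 1.35, 1.26 and 1.17 in control. For Zp1 the ratio was 0.484, 0.569 and 0.537 in cKO, against 0.416, 0.394 and 0.340 in control. In none of the 3 ratios do the groups overlap, and each had a two-sided exact permutation p of 0.1, the smallest that this design can give. The 3 ratios share 1 denominator, so they are not independent of each other. How many of all tested genes have a ratio to Gdf9 without overlap was not computed. Without a ratio, 30.0% of tested genes had groups that do not overlap in either direction.

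Bmp15, the other classic oocyte growth factor gene, was lower rather than higher on average in cKO, at 14.6, 30.9 and 48.6 FPKM in cKO 1 to 3, against 51.8, 60.4 and 29.5 FPKM in control 1 to 3. Those groups overlap, and it did not pass (log2 change -0.67, limma adjusted p = 0.381). Its change was -0.22 without cKO 1 and -1.05 without cKO 3, and it passed with libraries centred on the growing-oocyte list (-0.90, limma adjusted p = 0.00374). In that fit its standard error was 0.23, against 0.42 as deposited, and those of Zp2, Zp3, Gdf9 and Padi6 were each 0.21. The p-value of that fit therefore does not measure the spread of Bmp15 between pools. The log2 ratio of each egg coat gene to Bmp15 was 1.40 to 1.59 higher in cKO, with no overlap of the groups. These ratios also share a denominator, and the share of all tested genes with such a pattern was not computed.

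Among 24 growing-oocyte genes that were listed, found in the table and tested, 2 rose, none fell and 22 did not pass. Their median log2 change was 0.24, against 0.05 over all genes tested. Padi6, a peptidylarginine deiminase family gene needed for the oocyte's cytoplasmic lattices, rose to 719, 432 and 670.2 FPKM in cKO 1 to 3, against 288, 296 and 332 FPKM in control 1 to 3. Khdc3, of the complex beneath the egg surface, rose by 0.65 on the log2 scale and shares exon bases with the gene model Gm20509 on the same strand. The call of Padi6 was lost without control 1, control 2, cKO 1 or cKO 3 (limma adjusted p up to 0.161). That of Khdc3 was lost without any 1 library except cKO 2 (up to 0.167). With no filter on low values both were lost (adjusted p = 0.110 for Padi6 and 0.113 for Khdc3), and with libraries centred on this list the log2 change of Khdc3 was 0.41 (adjusted p = 0.427).

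The log2 change of Zp2 was larger than that of 23 of these 24 genes, and those of Zp3 and Zp1 were each larger than 21. The genes next to them in that order were Padi6, Ddx4, Nlrp5 and Khdc3. Within libraries, the ratio of Zp2 to the listed gene was higher in every cKO pool than in every control pool for 17 of 24 genes, that of Zp3 for 13 and that of Zp1 for 12. For no listed gene was a ratio lower in every cKO pool. The 24 ratios of each egg coat gene share 1 numerator, whose groups do not overlap by itself, so they are not independent of each other. The same counts for other tested genes were not computed. The mean log2 ratio was higher in cKO for 22 of 24 genes with Zp2 and for 21 with Zp1 and with Zp3. It was lower in cKO for all 3 egg coat genes relative to Padi6 (difference of -0.25 for Zp1, -0.06 for Zp2 and -0.18 for Zp3) and relative to Ddx4, a germ cell RNA helicase gene (-0.20, -0.01 and -0.13). Relative to Nlrp5, another gene of the complex beneath the egg surface, the difference was -0.10 for Zp1, 0.09 for Zp2 and -0.03 for Zp3. The groups overlap in all 9 of these ratios (two-sided exact permutation p of 0.4 to 1).

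**Figure D4:**
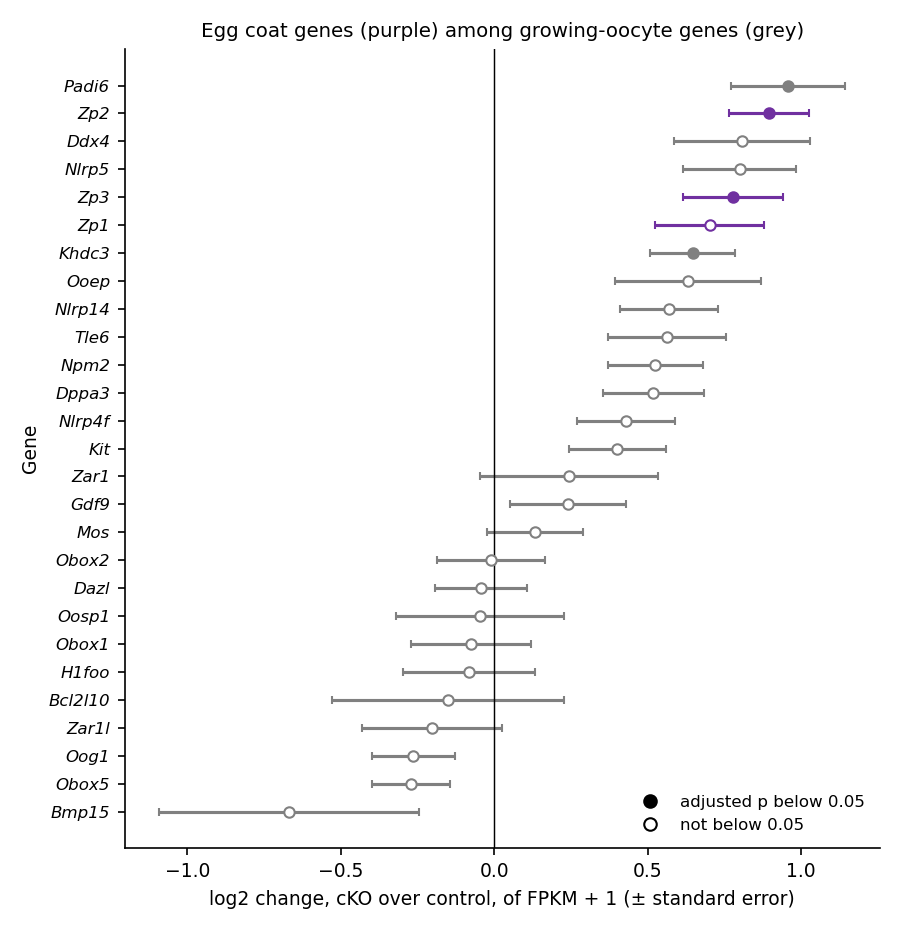
The log2 change of FPKM + 1, cKO over control, of the egg coat genes (purple) and 24 growing-oocyte genes (grey), in descending order; bars are standard errors and filled points have a limma adjusted p below 0.05. The egg coat genes lie in places 2, 5 and 6 of 27, between Padi6 and Khdc3.

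Other gene lists give the content of the ovaries beside the egg coat values. The summed FPKM of the growing-oocyte list was 2046 to 3290 in cKO and 1773 to 1990 in control, and its mean log2 level, which overlaps between groups, was 5.66 to 6.29 in cKO and 5.57 to 5.77 in control (two-sided exact permutation p = 0.4). The summed FPKM of 13 granulosa cell genes was 2163 to 2577 in cKO and 3400 to 4381 in control, with 6 of them falling and none rising. These genes did not move as 1 set. Every cKO pool lay below every control pool for 8 of them and above for 2, Foxl2 (log2 change 0.43) and Kitl (0.73), neither of which passed. Amh had a log2 change of -0.08 (limma adjusted p = 0.746). None of the oocyte or granulosa genes found in the table was at 0 in all libraries. With libraries centred on the growing-oocyte list, the log2 change was 0.66 for Zp2 (limma adjusted p = 0.0499), 0.54 for Zp3 (adjusted p = 0.166) and 0.47 for Zp1 (adjusted p = 0.301). The standard error in that fit was 0.21 for each, against 0.13, 0.16 and 0.18 as deposited, so these p-values do not measure each gene's own spread. With the list mean taken off within each library, the groups do not overlap for any of the 3 genes (two-sided exact permutation p = 0.1 each). The summed FPKM of 6 stromal genes was 991 to 1358 in cKO and 747 to 849 in control, with 2 of them rising. In the lists for theca, smooth muscle, endothelium, surface epithelium, oviduct, immune cells, blood and sperm no gene passed. The theca list still had a median log2 change of 0.66, with 5 of 6 genes positive, though the groups overlap for each of them. The blood list had a median of -1.16 with no gene positive. Of 3 tested adipose genes, Plin1 rose (log2 change 0.91), while Fabp4 (-1.21) and Adipoq (-0.59) were lower without passing. The part of granulosa and stromal content in these results was not tested.

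Of the regulators of the zona genes, 7 of 8 listed were tested, 2 rose and none fell, and the median log2 change was 0.42. Figla, the direct activator, was low next to its targets, at 13.6, 13.0 and 14.6 FPKM in cKO 1 to 3, against 5.93, 5.12 and 8.73 FPKM in control 1 to 3. The groups do not overlap, and Figla rose by 0.98 on the log2 scale (standard error 0.17, limma adjusted p = 0.0305). Sohlh1, a helix-loop-helix factor of primordial and primary oocytes, rose the most of the list, to 10.7, 10.1 and 12.8 FPKM in cKO, against 2.97, 3.24 and 4.47 FPKM in control (log2 change 1.43, standard error 0.15, limma adjusted p = 0.0104). The call of Figla was lost without any 1 library except control 3 (limma adjusted p up to 0.124), and that of Sohlh1 without control 1, control 2 or cKO 1 (up to 0.0670). With no filter on low values both calls were lost (adjusted p = 0.0927 for Figla and 0.0579 for Sohlh1). With libraries centred on the growing-oocyte list, the log2 change of Figla was 0.74 (adjusted p = 0.0834).

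The other regulators did not pass. Lhx8, a LIM homeobox factor of early oocytes, read 16.4, 14.7 and 18.2 FPKM in cKO, against 11.3, 11.7 and 13.0 FPKM in control, with no overlap and a limma adjusted p of 0.0651. Nobox, an oocyte homeobox factor, overlapped between groups, at 65.6, 40.2 and 53.6 FPKM in cKO against 28.5, 30.5 and 53.5 FPKM in control. Tcf3 and Tcf12, which encode E proteins that can pair with FIGLA, had limma adjusted p-values of 0.452 and 0.137. Taf4b averaged 5.66 FPKM in cKO and 6.11 FPKM in control (log2 change -0.10, limma adjusted p = 0.584). The log2 change was positive for the other 6 of the 7 tested regulators.

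Among proteases and egg surface genes, 10 were listed, 8 were tested, 1 rose and none fell, with a median log2 change of 0.17. Astl encodes ovastacin, the cortical granule protease that cuts ZP2 after fertilization. It read 65.4, 57.7 and 84.8 FPKM in cKO 1 to 3, against 44.8, 48.1 and 42.6 FPKM in control 1 to 3, with no overlap, a log2 change of 0.59 and a limma adjusted p of 0.0591. Pcsk6, a proprotein convertase gene, was the 1 that rose, to 134, 84.8 and 83.5 FPKM in cKO, against 41.8, 39.9 and 57.2 FPKM in control (log2 change 1.09, standard error 0.21, limma adjusted p = 0.0374), and its call was lost without control 1, control 2, cKO 1 or cKO 2 (adjusted p up to 0.160) and with no filter on low values (0.107). It shares exon bases with the gene model Gm45213 on the same strand. Furin, a convertase gene of the same family, averaged 26.3 FPKM in both groups, with a limma adjusted p of 0.995.

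Other genes of the ZP domain family, whose proteins share the polymerizing module of the egg coat, held no gene that rose. Of 11 listed, 5 were tested and 1 fell, and their median log2 change was -0.07. Zpld1 fell to 0.545, 0.657 and 0.559 FPKM in cKO 1 to 3, against 1.77, 1.22 and 2.39 FPKM in control 1 to 3 (log2 change -0.79, limma adjusted p = 0.0495), a call lost in all 6 fits with 1 library left out (adjusted p of 0.0721 to 0.169), with no filter (0.107), with array weights (0.0596) and with libraries centred on reference genes (0.0771). Eng, an endothelial receptor gene of this family, measured 43.8 ± 5.51 FPKM in cKO and 36.8 ± 3.36 FPKM in control (SD, n = 3 each) and had a limma adjusted p of 0.230.

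Zp1 and Zp3 varied together most closely, with Pearson's r of log2 values at 0.99 over the 6 libraries and 0.99 after the group means were removed. Zp2 followed Zp3 at 0.96 and 0.79, and Zp1 at 0.91 and 0.68. These are descriptions over 6 libraries, which the genotype difference itself spreads out. Of 7139 other genes with a mean of at least 10 FPKM, the pattern most like Zp1 was that of Astl (r = 0.996), followed by Pla2g4c, Cbx6, Tgif2 and Khdc3; Cbx6 shares exon bases with Npcd on the same strand. Astl also stood first for Zp3 (r = 0.997), followed by Cbx6, Khdc3, S1pr2 and Tgif2. For Zp2 the list was Naaa (r = 0.999), Mxra8, S1pr2, Hdac11 and Wt1, and Mxra8 overlaps its antisense gene Mxra8os. A correlation of at least 0.95 was reached by 33 genes for Zp1, 79 for Zp2 and 36 for Zp3. With group means removed, 124 to 148 genes reached it, the first being Tfb1m for Zp1, Plxdc2 for Zp2 and Tmem188 for Zp3.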

How the data were processed

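The authors deposited 1 table of FPKM values for 37924 Ensembl genes in 6 libraries; the unit was read from the values and from Cufflinks, since the header names none. The submitters' processing notes name TopHat2 2.0, Cufflinks 2.0 and the mm10 build. Which annotation, strand setting and filters were used is not given in these sources. Groups come from the genotype label, and replicate numbers only name libraries.

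limma 3.58.1 in R 4.3.3 (lmFit, eBayes with trend) was run on log2(FPKM + 1) for the 14934 genes with a mean of at least 0.5 FPKM, with Benjamini-Hochberg adjustment over all of them; it was tested on simulated data. Such fold changes understate those of low genes. Shares and ratios had two-sided exact permutation tests. Depth came from values below 0.15 FPKM in genes with 1 transcript of at least 1500 bases, each read as 1 fragment, with 150 bases taken off the length; it is an estimate. No label ties pools to separate litters or days, so p-values measure the spread between these pools. Those with libraries centred on the growing-oocyte list are an exception, because that fit gave genes of like level nearly the same standard error. Gene models are GENCODE M21 (GRCm38, the assembly of mm10), promoters RefSeq GRCm38.p6, where 1 of the 3 members matched. Members, gene lists and tests were chosen with earlier results of these data known. Named genes were the members, Gdf9, Bmp15, up to 4 passing genes with the smallest p of each list (or the 2 highest where none passed), and the 5 genes most like each member; others were chosen after their values were seen. Values of the knocked-out gene are not reported here.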

Additional observations from a re-analysis of the deposited data

How the results depend on the processing

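No paired analysis was possible because neither genotype's libraries carry numbers to pair. Count-based fits were not run, as the table holds FPKM. The egg coat genes stayed higher in cKO under all 19 alternatives, and their calls varied. Only the changes of library scaling could have turned this direction. The groups do not overlap as deposited, so no pseudocount, filter, eBayes setting, array weight or left-out library could reverse it. Zp1 passed with quantile normalisation (log2 change 0.76), libraries centred on the reference list (0.80) and array weights (0.69). Zp2 lost its call with no filter on low values (0.89) and in the 3 controls against cKO 1 (0.98). Zp3 lost it with no filter (0.78), centring on growing-oocyte genes (0.54), eBayes without trend (0.78), without control 3 and cKO 3 together (0.57) and against cKO 1 alone (0.70). With 1 library left out, which leaves fewer samples, the log2 change ran from 0.80 to 1.03 for Zp2 and from 0.59 to 0.92 for Zp3, and between 2 and 352 genes rose and between 9 and 388 fell.

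Genes that rose numbered 4 with no filter, 775 centred on reference genes, 92 centred on growing-oocyte genes, 1041 with array weights and 22 against cKO 1 alone; those that fell numbered 24 with no filter, 577 centred on the median, 743 with array weights and 2 against cKO 1 alone. Low counts with 1 library left out came without control 1 (5 rose and 15 fell), control 2 (2 and 16), cKO 1 (6 and 9) and cKO 2 (108 and 84). Without control 3 and cKO 3 together, and against cKO 1 alone, the cKO minus control share in percentage points was -2.11 and -2.06 for Zp1, 5.25 and 5.20 for Zp2, and -3.13 and -3.14 for Zp3. The log2 ratio to Bmp15 in place of Gdf9 differed by 1.40 for Zp1, 1.59 for Zp2 and 1.47 for Zp3. The cause of these shifts was not tested.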

Other observations

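A few growing-oocyte genes, chosen after their values were seen, had another order of cKO libraries than the egg coat genes. Bcl2l10, a BCL2 family gene of oocytes, read 30.4, 33.8 and 73.6 FPKM in cKO 1 to 3, against 53.2, 65.3 and 29.9 FPKM in control 1 to 3. Zar1, a maternal-effect gene, read 74.9, 86.6 and 153 FPKM in cKO, against 92.8, 104.8 and 61.0 FPKM in control. Oosp1, which encodes an oocyte-secreted protein, read 44.1, 54.9 and 93.8 FPKM in cKO, against 63.3, 78.2 and 50.6 FPKM in control. In each of them, as in Bmp15, cKO 1 was the lowest cKO pool and control 3 the lowest control pool, and the groups overlap. Among the egg coat genes, control 3 was the lowest control pool for Zp1, the middle one for Zp3 and the highest for Zp2, and cKO 2 was the lowest cKO pool for all 3.

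Genes named for sperm proteins that bind the zona were near the floor of the table in all 6 libraries and were not tested. Zp3r was at most 0.141 FPKM in cKO and 0.210 FPKM in control. Zpbp read 0.459, 0.455 and 0.439 FPKM in cKO 1 to 3, against 0.279, 0.248 and 0.287 FPKM in control 1 to 3, and Zpbp2 read 0.549, 0.179 and 0.281 FPKM in cKO against 0.153, 0.186 and 0.142 FPKM in control.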
